A study of Mus musculus with 6 samples.

Results

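CpG sites that were methylated in at least 50% of reads in mouse embryonic stem cells expressing DNMT3B1 were followed into 2 other lines. A site was a member if it lay on an autosome, had 10 to 40 reads in the DNMT3B1 line with at least 50% of them methylated, and had 10 to 45 reads in the DNMT3A2 line. Of 4425936 autosomal sites within these coverage limits, called eligible here, 16178 were members (0.366%), out of 20782144 CpG sites in all. The DNMT3B1 reads chose the members, so their DNMT3B1 level is given as a description and was not tested. The levels in the other lines, the CpG density and the spacing of the members were not used to choose them.

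The 6 samples were 2 sequencing runs for each of 3 lines, measured by whole-genome bisulfite sequencing, in which a C that is still read as C after conversion counts as methylated. All 3 lines lacked the endogenous methyltransferases DNMT1, DNMT3A and DNMT3B. The first line expressed DNMT3B1 and lacked SETD2 as well, the second expressed DNMT3B1 with SETD2 intact, and the third expressed DNMT3A2. Cells were grown with feeder cells or on gelatine. The labels named no separate cultures or clones, so each line was treated as 1 library, and no p-value between lines was computed. Summed over sites, the SETD2 knockout line had 200947834 reads, the DNMT3B1 line 188661576 and the DNMT3A2 line 200364080. Of these reads, 5.85%, 2.72% and 7.35% were methylated, in the same order. The knockout values listed only sites with at least 10 reads, and sites with 10 to 80 reads were used. All intervals are exact (Clopper-Pearson) 95% binomial intervals and cover counting error only. Neighbouring CpGs can lie on the same read, which is then counted at each. Intervals over pooled sites, above all within runs, can therefore be too narrow. In bulk DNA, methylation of every copy in some cells and of some copies in every cell cannot be told apart.

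DNMT3A and DNMT3B are de novo methyltransferases, which add methyl groups to CpGs that carry none, whereas DNMT1 copies an existing pattern onto the new strand after replication. Without DNMT1, methylation has to be set again after each division. DNMT3B is known to be drawn to transcribed gene bodies through its PWWP domain, which binds histone H3 trimethylated at lysine 36, the mark that SETD2 deposits. De novo methyltransferases are also known to act more readily on linker DNA than on DNA wrapped around a nucleosome.

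The members lay just past the threshold for the most part. Their pooled DNMT3B1 level was 58.2%, with a median per site of 54.5%, and 5145 of them had exactly 50% of reads methylated. There were 690 members at 80% or more and 41 with every read methylated. Members had a mean of 14.1 DNMT3B1 reads, against 15.9 at non-members, and 48.0% of members had only 10 to 12 reads. The share of eligible sites that were members was 0.545% at 10 to 12 DNMT3B1 reads, 0.339% at 13 to 15, 0.290% at 16 to 20 and 0.184% at 21 to 40. Member frequency thus varied with the depth of the reads that chose them. For the main comparisons below, the non-member sites were therefore weighted to the members' CpG density, DNMT3B1 coverage and coverage in the line measured. These weighted sites are called matched. For values around matched sites, only density and DNMT3B1 coverage were weighted. Non-member values not called matched were not weighted.

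The first question was whether sites mostly methylated with DNMT3B1 stayed so in the line that lacked SETD2. Few did: 367 of 10623 members with knockout reads (3.45%, interval 3.12% to 3.82%) were methylated in at least 50% of knockout reads. Members were picked as high in 1 pooled set of DNMT3B1 reads, mostly just past 50%. Some would fall below 50% in a second set of reads of that line, and none was available. The share is thus not a measure of methylation lost without SETD2. The same was true of 1.12% of matched non-members and of 0.869% of all eligible sites listed in the knockout. With at least 15 reads in the knockout and DNMT3A2 lines the share was 2.28%, against 0.587% at matched non-members. The pooled knockout level was 13.2% at members (13.0% to 13.3%, 26368 of 200184 reads) and 6.64% at matched non-members, a ratio of 1.98. The median member had 8.33% of its knockout reads methylated, with quartiles of 0% and 21.1%. No methylated knockout read was seen at 36.8% of members and at 59.4% of matched non-members. The members were therefore raised in the knockout relative to similar sites, yet 3909 of the 10623 showed no methylated read there. Of all members, 65.7% had a usable knockout value, against 69.0% of matched non-members.

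The second question was how far DNMT3A2 methylated the same sites. The pooled DNMT3A2 level was 13.0% at members (12.8% to 13.1%, 31692 of 244480 reads), against 8.31% at matched non-members, a ratio of 1.56. At least 50% of DNMT3A2 reads were methylated at 739 members (4.57%, 4.25% to 4.90%), at 1.82% of matched non-members and at 1.49% of all eligible sites. At members with 80% or more of DNMT3B1 reads methylated the DNMT3A2 share was 10.6%, against 1.90% at matched non-members. The median member had a DNMT3A2 level of 7.14%, and 42.4% of members had no methylated DNMT3A2 read, against 54.6% of matched non-members. The 739 shared sites were 4.57% of the members and 1.12% of the 65852 eligible sites that DNMT3A2 methylated in at least 50% of reads. The 367 sites shared with the knockout were 3.45% of the members it listed and 1.30% of the 28165 eligible sites at 50% or more in the knockout.

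**Figure D1:**
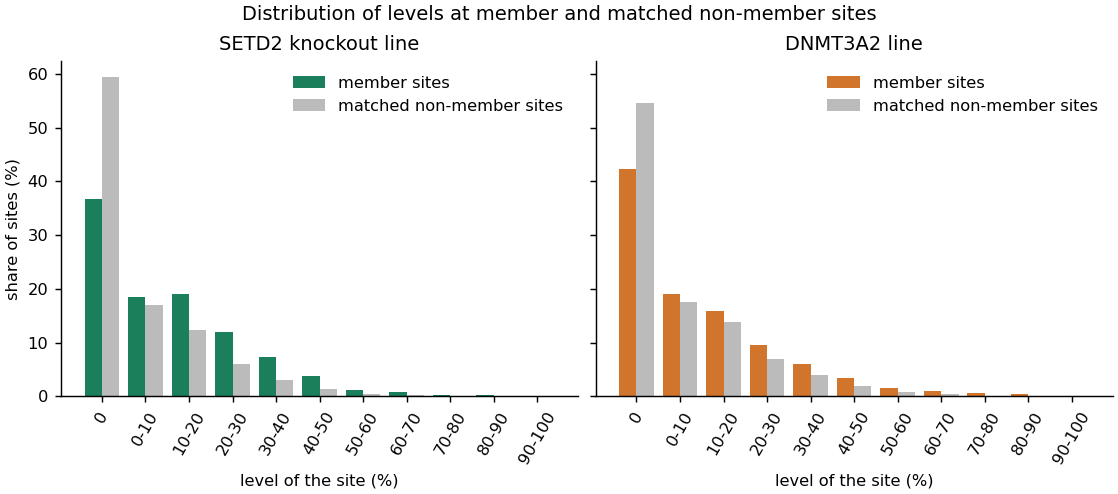
Share of sites (y axis, %) by methylation level of the site (x axis, %, with sites at exactly 0 on their own) in the SETD2 knockout line and the DNMT3A2 line, each treated as 1 library. Coloured bars are the member sites and grey bars the matched non-member sites; members at 0 were 36.8% in the knockout and 42.4% with DNMT3A2, below the matched 59.4% and 54.6%.

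Over all members, the ratio to matched sites was larger in the SETD2 knockout than with DNMT3A2, but this order turned in some subsets. On the members that the knockout listed, the DNMT3A2 level was 12.9%, against 8.34% at matched non-members, a ratio of 1.54. Across the 19 autosomes the knockout ratio ran from 1.80 to 2.18 with a median of 1.97, and the DNMT3A2 ratio from 1.40 to 1.69 with a median of 1.55. The knockout ratio was the higher on 19 of 19 autosomes. At 80% or more of DNMT3B1 reads methylated the order was the other way, with level ratios of 2.20 in the knockout and 2.31 with DNMT3A2, and ratios of the share at 50% or more of 4.35 and 5.58. With at least 15 DNMT3B1 reads the level ratios were 2.00 and 1.77, whereas the share ratios were 2.99 and 3.71. The level ratio was also the lower in the knockout at members with a CpG 2 bp away (1.64 and 1.82) and, without weighting for coverage, at 1 to 4 CpGs within 500 bp on each side (2.02 and 2.11) and at 40 or more. Both lines were above matched sites on each autosome, in pooled level and in the share of sites at 50% or more. The knockout level at members was between 11.5% and 14.3% on single autosomes and the DNMT3A2 level between 11.7% and 14.1%.

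Few members were highly methylated in every line. Of the 10623 members with values in all lines, 26 (0.245%) were at 50% or more in all 3, and 9833 (92.6%) were below 50% in both other lines. At matched non-members 1.12% were at 50% or more in the knockout and 1.73% with DNMT3A2. Sites below 50% in both were thus the rule there too, and their joint share was not computed. The knockout was at 50% or more in 26 of 449 members that were also high with DNMT3A2 (5.79%, 3.82% to 8.37%) and in 341 of 10174 that were not (3.35%, 3.01% to 3.72%). The 2 intervals did not overlap. Non-members were not split in this way, so the difference is not shown to be particular to members. No methylated read in either other line was seen at 1776 members (16.7%, 16.0% to 17.4%), against 40.6% of listed non-members, which were not matched here.

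The 26 sites lay on 11 autosomes, each farther than 500 bp from the next, at 1 to 37 CpGs per kb with a median of 11. Their pooled levels were 65.0% in the knockout, 69.9% with DNMT3B1 and 64.2% with DNMT3A2. Density is counted throughout as CpG sites within 500 bp on each side, the site included. A single member had every read methylated in all 3 lines, with 10 of 10 knockout reads, 25 of 25 DNMT3B1 reads and 15 of 15 DNMT3A2 reads. It lay on chromosome 7 from 101926344 to 101926345 in build mm9, with no other CpG closer than 922 bp.

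At the other extreme stood members that neither other line methylated. The 5 with the most DNMT3B1 reads among the 1776 lay on chromosomes 6, 8, 11 and 15. The site on chromosome 11 from 89997906 to 89997907 had 0 of 11 knockout reads methylated, 24 of 39 DNMT3B1 reads (61.5%, 44.6% to 76.6%) and 0 of 25 DNMT3A2 reads. That on chromosome 15 from 84800679 to 84800680 had 0 of 26 knockout reads, 24 of 33 DNMT3B1 reads (72.7%, 54.5% to 86.7%) and 0 of 13 DNMT3A2 reads. The upper limits at these sites were 28.5% and 13.2% in the knockout and 13.7% and 24.7% with DNMT3A2. All 5 were chosen for having no methylated read in the other lines, so the distance between lines is a description and was not tested. The site on chromosome 6 from 137318975 to 137318976 had 0 of 31, 18 of 36 and 0 of 11 reads in the same order of lines. Those on chromosome 8 had 0 of 21, 19 of 36 and 0 of 11 reads from 12321600 to 12321601, and 0 of 15, 17 of 32 and 0 of 13 reads from 108765155 to 108765156.

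The threshold did not mark a step in the other lines. Sites just inside it, at 50% to under 55% with DNMT3B1, had levels of 12.8% in the knockout and 11.9% with DNMT3A2 (8249 sites). Sites just outside, at 45% to under 50%, had 12.3% and 12.0% (6143 sites). Across all eligible sites both lines climbed with the DNMT3B1 level. At a DNMT3B1 level below 10% the knockout level was 5.15% and the DNMT3A2 level 6.93%, and at 20% to under 30% they were 10.8% and 10.8%. These classes were not weighted, and their mean densities were 21.6 and 13.3 CpGs per kb. The part of density in the climb was not tested.

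Among members, the pooled level climbed with the DNMT3B1 level at each step in both lines. In the knockout the climb was small up to a DNMT3B1 level of 90%, where its intervals stayed within 12.8% to 14.7%. At 50% to under 60% the knockout level was 13.0% (12.8% to 13.2%) and the DNMT3A2 level 12.1% (12.0% to 12.3%). At 80% to under 90% they were 13.7% (12.8% to 14.7%) and 17.9% (17.0% to 18.8%). At 90% to under 100% they were 16.0% (14.1% to 18.1%, 75 sites) and 21.4% (19.6% to 23.2%). At the 41 members with every DNMT3B1 read methylated they were 25.4% (20.8% to 30.4%) and 25.3% (21.9% to 29.0%), the knockout value resting on 21 sites. Of those 41 sites, 9 were at 50% or more with DNMT3A2 (22.0%).

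**Figure D2:**
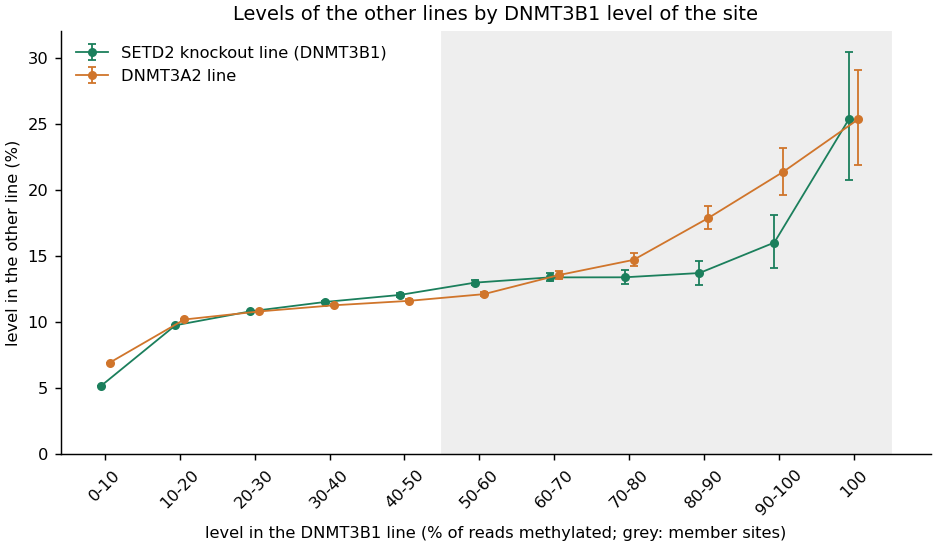
Pooled level in the SETD2 knockout line and the DNMT3A2 line (y axis, % of reads, each treated as 1 library) by DNMT3B1 level of the site (x axis, %), with exact 95% binomial intervals. The grey area holds the member sites; there the DNMT3A2 level climbs from 12.1% to 25.3%, and the knockout level stays near 13% until the last steps.

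Depth moved with the DNMT3A2 value. At 21 to 40 DNMT3B1 reads the members had a DNMT3A2 level of 18.7% (18.3% to 19.2%), against 11.9% at 10 to 12 reads, while the knockout level was 13.3% and 13.1% and non-members had DNMT3A2 levels of 7.09% and 7.40%. The higher level was not seen at every DNMT3A2 depth. At 21 to 40 DNMT3B1 reads and 10 to 15 DNMT3A2 reads the DNMT3A2 level was 12.6% (11.9% to 13.3%, 741 members). Deep coverage in both lines marked a small set. At 56 members with 21 to 40 DNMT3B1 reads and 31 to 45 DNMT3A2 reads the DNMT3A2 level was 45.3% (43.1% to 47.5%), with 29 sites at 50% or more. The knockout level at 44 of those sites was 11.9% (9.79% to 14.2%). Non-members with 31 to 45 DNMT3A2 reads, at any eligible DNMT3B1 coverage, had a DNMT3A2 level of 6.98%. The share of non-members at 50% or more was not computed for this joint coverage. The part of copy number or of repeated DNA in the relation of depth to the DNMT3A2 level was not tested.

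Members were most frequent at 5 to 9 CpGs per kb and almost absent from CpG-dense DNA. Their median density was 12 CpGs per kb, with quartiles of 8 and 16, against 14 (9 and 21) for non-members. Members made up 0.426% of eligible sites with 1 to 4 CpGs per kb. The share was 0.465% for a density of 5 to 9, 0.433% for 10 to 19 and 0.274% for 20 to 39. At 40 to 59 CpGs per kb 45 of 179008 sites were members (0.0251%), and at 60 or more 18 of 342566 (0.00525%, 0.00311% to 0.00830%). Given the DNMT3B1 coverage of the sites, members were 1.09 times as frequent as over all eligible sites at 1 to 4 CpGs per kb and 1.23 times at 5 to 9. The ratio was 1.19 at 10 to 19, 0.777 at 20 to 39 and 0.0148 at 60 or more.

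Below 40 CpGs per kb the levels of the other lines at members changed little with density, although those at non-members did. From 1 to 4 up to 20 to 39 CpGs per kb the knockout level at members was between 12.4% and 13.5%, and the DNMT3A2 level between 11.7% and 13.3%. Non-members in these classes had 4.99% to 7.05% in the knockout and 5.57% to 9.16% with DNMT3A2. Without weighting for coverage, the ratio of members to non-members was lowest among these classes at 5 to 9 CpGs per kb in the knockout (1.91) and at 10 to 19 with DNMT3A2 (1.45).

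The densest class differed. Its 18 members had a DNMT3A2 level of 31.6% (27.2% to 36.4%, 131 of 414 reads), against 0.215% at non-members of that density. In the knockout they had 0.613% (0.0744% to 2.20%, 2 of 326 reads), against 0.457% at non-members. Of the 18, 10 had no methylated DNMT3A2 read, 7 were at 50% or more and 1 lay between. The 7 came from 3 places, on chromosomes 2, 10 and 14, and had 125 of 210 DNMT3A2 reads methylated (59.5%). The 6 of these sites that the knockout listed had 0 of 112 reads methylated there, with an upper limit of 3.24%. Neighbouring sites among them can share reads, so this limit can be too low. This set was singled out after its values were seen. One of the 3 places, on chromosome 14, held neighbouring members at 70919603 and 70919607, with DNMT3B1 levels of 61.9% and 66.7% and DNMT3A2 levels of 73.9% and 70.0%. Neither had a methylated read among 20 and 23 knockout reads. The member on chromosome 2 at 146047219 had 0 of 26 knockout reads, 19 of 31 DNMT3B1 reads and 23 of 39 DNMT3A2 reads methylated.

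**Figure D3:**
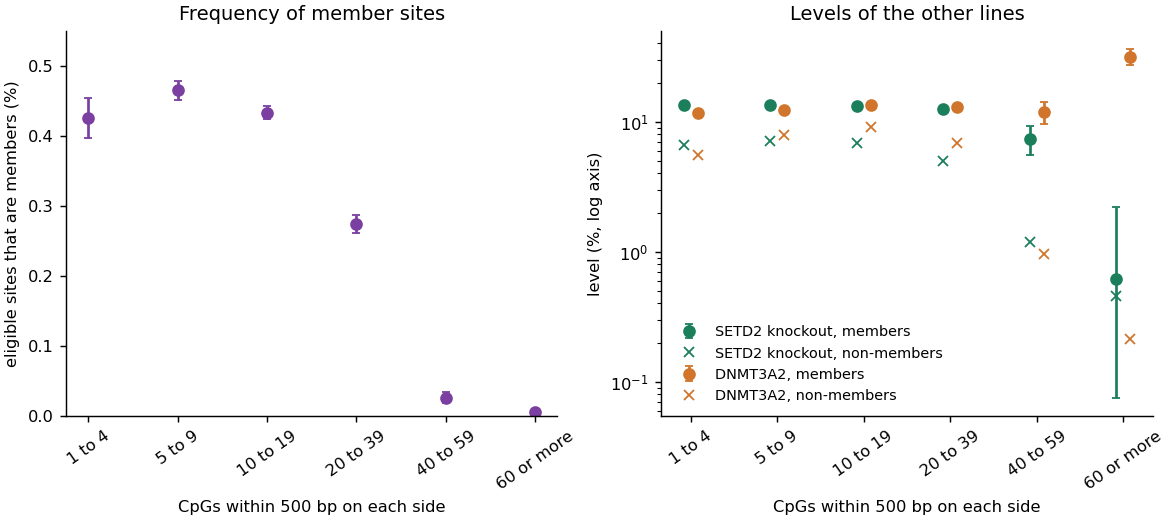
Left, members as a share of eligible sites (y axis, %) by CpG density (x axis, CpGs within 500 bp on each side). Right, pooled levels of the SETD2 knockout and DNMT3A2 lines (y axis, %, log scale) at members (circles) and non-members (crosses); bars are exact 95% binomial intervals, and at 60 or more CpGs per kb members stood at 0.613% in the knockout and 31.6% with DNMT3A2.

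The distance to the nearest CpG made little difference except at its shortest. The median distance was 27 bp for members and 22 bp for non-members. At 2 bp, where the sequence must read CGCG, 189 of 194960 eligible sites were members, 0.521 times the number given by their density and DNMT3B1 coverage. From 3 bp upwards this ratio was between 0.932 and 1.12. Members with a CpG 2 bp away had a knockout level of 7.09% (6.05% to 8.24%), the lowest of any spacing, against 4.31% at matched non-members. Their DNMT3A2 level was 15.4% (14.1% to 16.8%), the highest of any spacing, against 8.46% at matched non-members. Its interval overlapped that at 4 to 5 bp (14.6%, 14.0% to 15.2%). The members with a CpG 2 bp away include sites of the runs on chromosomes 7 and 10 described below, where DNMT3A2 was high. At all other spacings the knockout level of members was between 12.4% and 14.9% and the DNMT3A2 level between 12.0% and 14.6%.

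Members occurred near each other more often than matched sites lay near members. Another member within 500 bp was found for 1446 of 16178 members (8.94%, 8.50% to 9.39%) and for 1.62% of matched non-members. With members defined at 80% or more, 2.03% had another within 500 bp, against 0.0569% of matched non-members. CpGs this close can lie on the same DNMT3B1 fragments, so the reads that chose one member can have chosen the next. Of eligible CpGs 6 to 10 bp from a member, 11.1% were members too, against 0.380% around matched non-members. At 501 to 1000 bp, beyond the size-selected fragment length, the shares were 0.493% (0.438% to 0.553%) and 0.341%, a ratio of 1.45. At 2001 to 5000 bp they were 0.394% (0.374% to 0.416%) and 0.319%.

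Clustered and isolated members had close levels in the other lines. With another member within 500 bp the knockout level was 12.9% (12.4% to 13.4%) and the DNMT3A2 level 13.9% (13.4% to 14.3%), and without one they were 13.2% (13.0% to 13.4%) and 12.9% (12.7% to 13.0%). The intervals overlapped in the knockout and not with DNMT3A2. In the knockout the members differed somewhat with the DNMT3B1 level of the surrounding non-member CpGs, at 501 to 2000 bp. Where these CpGs had no methylated DNMT3B1 read the members had 12.3% (11.7% to 13.0%) in the knockout and 13.4% with DNMT3A2 (743 members). Where they were methylated in 5% to under 10% of reads, the members had 13.8% (13.4% to 14.2%) and 13.2% (1959 members). The knockout intervals of these classes did not overlap. Above 10% the members had 13.6% in the knockout (12.4% to 14.9%, 160 sites), and this interval overlapped both. The knockout level thus did not climb at each step. The share of members at 50% or more in the knockout was higher at each step of the surrounding level, at 2.05%, 2.46%, 3.23%, 3.65% and 3.75%, although the intervals of the lowest and highest class overlapped (0.989% to 3.74% and 1.39% to 7.98%). These knockout shares rest on 10, 40, 90, 53 and 6 sites. With DNMT3A2 the shares lay between 3.93% and 4.85%. Non-members were not split by surrounding level, so the rise in the knockout is not shown to be particular to members. Of all members, 8990 had the 100 surrounding reads required here.

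The non-member CpGs around members carried more methylation in the other lines, and their level went up and down with distance. In the first 20 bp they had 7.95% in the knockout and 12.0% with DNMT3A2, against 6.25% and 8.81% around matched non-members. At 61 to 120 bp from a member the levels were 6.69% and 8.90%, and at 161 to 200 bp they were 8.24% and 12.3%. The level thus dropped away from the member and was as high again at 161 to 200 bp. Further high levels followed at 361 to 380 bp, with 7.94% in the knockout and 11.7% with DNMT3A2, and at 521 to 540 bp, with 7.91% and 11.3%. At 281 to 300 bp, between the first and second of these distances, the levels were 6.54% and 9.10%.

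Around matched non-members the same distances gave a smaller swing. The level at 161 to 200 bp minus that at 61 to 120 bp was 1.55 percentage points around members and 0.39 around matched non-members in the knockout, and 3.44 and 1.12 with DNMT3A2. These distances were picked from the profile itself. With DNMT3A2 the difference was positive on 19 of 19 autosomes both around members and around matched non-members, and larger around members on 18. In the knockout it was positive on 17 around members and on 16 around matched non-members, and larger around members on 16 of the 19. The sign alone was thus not particular to members.

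**Figure D4:**
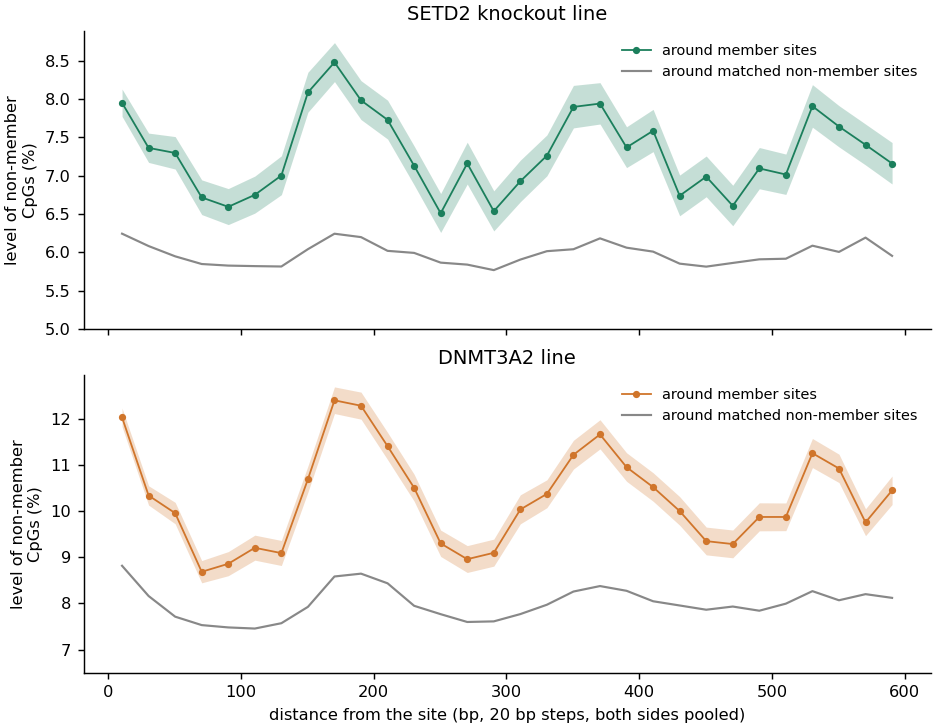
Pooled level of non-member CpGs (y axis, %, not starting at 0) by distance from a member site (x axis, bp, 20 bp steps, both sides pooled), in the SETD2 knockout line and the DNMT3A2 line. Coloured lines with exact 95% binomial bands are around members and grey lines around matched non-members; around members, maxima stand near 0, 161 to 200, 361 to 380 and 521 to 540 bp.

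Joined at gaps of up to 500 bp, the members formed 15416 runs, of which 14732 were single sites, 621 pairs and 52 triplets. Only 11 runs had 4 or more members, and the 10 with the most were examined, at 4 to 7 members each. A pair of them stood apart, in that DNMT3A2 methylated them strongly and the knockout not at all.

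The longest run held 7 of the 8 CpGs on chromosome 7 from 149767925 to 149768046, at 24 CpGs per kb. The knockout had 0 of 105 reads methylated at these members (upper limit 3.45%) and 0 of 120 over all CpGs listed there. The members lay within 122 bp and had 13 to 22 knockout reads each. The same reads can be counted at several of them, so this limit can be too low. DNMT3B1 had 100 of 163 reads methylated (61.3%) and DNMT3A2 94 of 237 (39.7%, 33.4% to 46.2%). At single members the DNMT3B1 count ran from 13 of 19 reads to 14 of 26, and the DNMT3A2 count from 16 of 27 to 10 of 40, while each of the 7 had 0 methylated knockout reads. Non-member CpGs within 1 kb on each side had 0.505%, 11.2% and 5.69% in the same order of lines.

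The run on chromosome 10 from 12810339 to 12810502 was the densest of the 10, with 4 members at a mean of 63 CpGs per kb. The knockout had 0 of 43 reads methylated at its 3 listed members (upper limit 8.22%), where the same read can again be counted more than once. DNMT3B1 had 47 of 89 reads methylated (52.8%) and DNMT3A2 71 of 128 (55.5%, 46.4% to 64.3%). The methylation reached beyond the members: non-member CpGs within 1 kb had 0.313% in the knockout, 30.0% with DNMT3B1 and 40.9% with DNMT3A2. This was the one run of the 10 in which the DNMT3A2 level was above the DNMT3B1 level.

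In the other 8 runs the DNMT3A2 level was between 8.22% and 18.9%. The 5 members on chromosome 4 from 140109261 to 140109664 had 7.41% in the knockout, 51.2% with DNMT3B1 and 16.3% with DNMT3A2. The 4 on chromosome 2 from 26319345 to 26319388 had 1.23% (1 of 81 reads), 65.6% and 18.0%. The 4 on chromosome 3 from 101377838 to 101377862 reached the highest DNMT3B1 level of the 10 runs, 75.0%, with 18.8% (10.1% to 30.5%) in the knockout and 18.9% with DNMT3A2. On chromosome 4 the run from 107048920 to 107049069 had 6.74%, 53.7% and 8.22%, and that from 117897165 to 117897420 had 16.7%, 56.4% and 10.0%. On chromosome 6 the run from 120959025 to 120959104 had 64.6% with DNMT3B1 and 8.33% with DNMT3A2, and 5 of 30 reads at its 1 member listed in the knockout. The other run on chromosome 6, from 64616252 to 64616289, had 58.3% with DNMT3B1 and 10.9% with DNMT3A2, and none of its members had a knockout value. On chromosome 8 from 127252299 to 127252382 the levels were 5.06%, 60.2% and 12.5%.

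**Figure D5:**
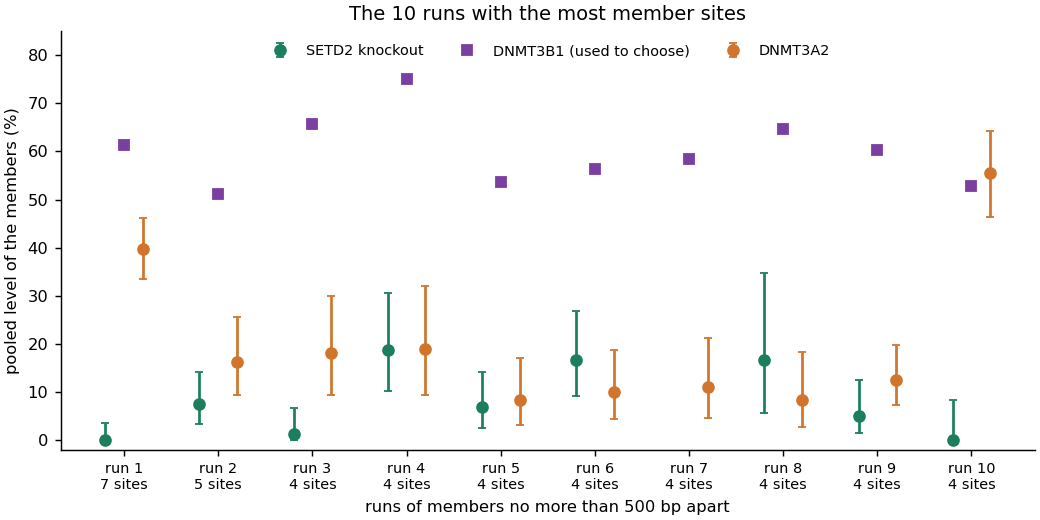
Pooled level of the members (y axis, %) in each of the 10 runs with the most members (x axis), in the SETD2 knockout, DNMT3B1 and DNMT3A2 lines, with exact 95% binomial intervals for the lines not used to choose members. Run 1, on chromosome 7, and run 10, on chromosome 10, had 0% in the knockout and 39.7% and 55.5% with DNMT3A2; run 7 had no knockout value.

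Members were spread over all 19 autosomes, with 463 to 1225 on each. Given their CpG density and DNMT3B1 coverage, autosomes 6, 8 and 11 held fewer members than the genome-wide frequency gives, at 0.767, 0.811 and 0.622 times. The other 16 autosomes held between 1.01 and 1.28 times. These 3 autosomes also had the highest mean coverage at eligible sites in the DNMT3B1 line, between 17.0 and 18.2 reads, against 14.7 to 15.8 on the others. The ratios already take coverage into account, and whether the number of chromosome copies bears on them was not tested. At members on these autosomes the knockout level was between 13.5% and 14.2% and the DNMT3A2 level between 11.7% and 13.3%.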

How the data were processed

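The deposited table gave the count of all reads and the count of methylated reads per CpG site, per the file headers, for the DNMT3B1 and the DNMT3A2 line, both runs taken as pooled. For the SETD2 knockout line the deposited files gave the same counts and their fraction, which equals methylated over all reads at each site. Its 2 files were identical and used once, and whether they hold 1 run or both is not given in the sources used here. Positions are those of the deposited files, in build mm9, as the submitters' processing notes name it. How reads were aligned and called, and whether duplicates or reads from repeated DNA were removed, is not given in the sources used here, and both can enter these counts.

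Levels are methylated reads over all reads. Matched values weight all non-members to the members' joint distribution of density class (6 classes) and of the exact coverage in DNMT3B1 and in the measured line. For values around non-members, every 20th was used, weighted by density class and DNMT3B1 coverage. A CpG near several members counts for each. The weighting was tested on simulated data. The runs named are the 10 with the most members, ties by chromosome and position. The single sites named are up to 5 with every read methylated in all lines and 5 with none in the other lines, by reads. The members and lists were chosen with earlier results of these data known. Values were computed with numpy 2.4.6, scipy 1.17.1 and pandas 2.3.3 in Python 3.11.15, and drawn with matplotlib 3.10.9.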

Additional observations from a re-analysis of the deposited data

Results flagged for a closer look

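Data outside the comparisons also held sites at 50% or more with DNMT3B1. On the X chromosome, within the same coverage limits, 54 of 6259 sites qualified (0.863%, exact 95% interval 0.649% to 1.12%). Their DNMT3A2 level was 37.8% (34.5% to 41.1%), and their knockout level 20.8% on 12 sites. On the autosomes, 134 of 17017 sites over a coverage maximum qualified (0.787%, 0.660% to 0.932%). These had a DNMT3A2 level of 78.9%, with 111 sites at 50% or more, and a knockout level of 39.4% on 87 sites. Among the eligible autosomal sites of the main set 0.366% qualified. Levels at the other X chromosome and over-coverage sites were not computed. The levels given are thus not shown to be particular to sites at 50% or more with DNMT3B1.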

How the results depend on the processing

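In all 39 recalculations members stayed above matched non-members, by 1.96 to 2.20 times for the knockout level and 1.49 to 2.31 for the DNMT3A2 level. Of these values, 18 stayed within the interval of the reported value, and none changed direction. With members defined at 80% or more, the knockout level was 14.7% and its share of sites at 50% or more 5.30%. For DNMT3A2 they were 19% and 10.6%, and 2.03% of members had another within 500 bp. At 15 or more DNMT3B1 reads, the knockout share was 3.07%, the DNMT3A2 level 14.6%, its share 6.08% and the share with another member 8.21%. At 15 or more reads in the measured lines, the knockout level and share were 13.4% and 2.28%, those of DNMT3A2 13.9% and 5.11%, and the share with another member 7.42%. Without a coverage maximum, the knockout level was 13.6%, the DNMT3A2 level 16.6% and its share 5.21%. Without autosomes 6, 8 and 11, the levels were 12.9% and 13.1%. Leaving out members with 21 or more reads in both DNMT3B1 and DNMT3A2, an alternative chosen after seeing the data, gave a DNMT3A2 level of 12.4% and share of 4.18%. The causes were not tested. Matching on coverage alone gave 5.77% in the knockout and 7.34% with DNMT3A2 at non-members. No paired analysis was possible because each line gave 1 set of values, so no replicate could be left out either. With 10 to 12 reads at 48.0% of members, depth limits what a single site shows.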
